A study of Mus musculus with 6 samples.

Results

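The genes described are the 10 that encode the light-response cascade of cone photoreceptors, namely Opn1sw, Opn1mw, Gnat2, Gnb3, Gngt2, Pde6c, Pde6h, Cnga3, Cngb3 and Arr3. They were chosen by symbol, and each was found once among the 32285 genes of every library. RNA and open chromatin were read from the same nuclei of mouse retina (10x Genomics single-nucleus multiome) in 3 libraries. The 1st library came from C57BL/6J retinas given AAV2/2, an adeno-associated virus, to overexpress WIF1 (WNT inhibitory factor 1), taken at 2 weeks "AVI". The 2nd came from the same treatment at 4 weeks "AVI", and the 3rd, the control, from naïve wild-type retinas of the same strain. The labels do not expand AVI. Retinas were dissociated with papain and nuclei were then extracted. Each group had 2 eyes and 1 library per assay, and whether both eyes of a group were pooled is not stated in the sources used here.

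The design lists CMV-Wif1-HA-IRES-GFP, which also carries GFP, and, without it, CMV-Wif1-HA. Both are driven by the broadly active CMV promoter, and which was given to these eyes is not said. A library with the control virus was not analysed here. Injection, virus and WIF1 therefore cannot be told apart. With 1 library per group no difference could be tested against a spread between eyes, so no p-value is given. Every interval is an exact 95% interval that covers counting error only. Kept nuclei held 11 Wif1 UMIs (unique molecular identifiers, each standing for 1 captured RNA molecule) in the 2-week library, 37 in the 4-week library and 1 in the control library.

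In a cone, light turns an opsin into an activator of the G protein transducin, whose α subunit switches on a phosphodiesterase that breaks down cGMP. The fall in cGMP closes cyclic-nucleotide-gated channels, and arrestin then quenches the opsin. Rods run the same cascade with their own genes for nearly every step. Mouse cones make S opsin (Opn1sw), M opsin (Opn1mw) or both, in proportions that vary with their place in the retina. Gnb3 is also the G protein β subunit of ON bipolar cells, where it takes part in the mGluR6 cascade that relays the photoreceptor signal.

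Of the 10 genes, 6 had a promoter in the RefSeq table (build GRCm38.p6, the assembly that mm10 names), which spans 250 bases before to 50 after a gene start. The 4 below are shown because their windows differ in the motif TAATC, the core bound by the photoreceptor factors CRX and OTX2, and in the open chromatin described later. They run 5′ to 3′ along the gene's strand, with TAATC, or its reverse complement GATTA, in capitals. They lie at chr6:29380464-29380763 (minus strand) for Opn1sw, chrX:74127216-74127515 (plus) for Opn1mw, chr3:108092816-108093115 (plus) for Gnat2 and chrX:100605247-100605546 (plus) for Arr3.
Opn1sw: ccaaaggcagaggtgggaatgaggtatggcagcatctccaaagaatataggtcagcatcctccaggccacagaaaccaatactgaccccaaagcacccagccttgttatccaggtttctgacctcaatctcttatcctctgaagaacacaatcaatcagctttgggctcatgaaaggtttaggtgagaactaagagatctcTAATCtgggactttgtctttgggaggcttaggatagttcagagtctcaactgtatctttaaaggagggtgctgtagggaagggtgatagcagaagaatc
Opn1mw: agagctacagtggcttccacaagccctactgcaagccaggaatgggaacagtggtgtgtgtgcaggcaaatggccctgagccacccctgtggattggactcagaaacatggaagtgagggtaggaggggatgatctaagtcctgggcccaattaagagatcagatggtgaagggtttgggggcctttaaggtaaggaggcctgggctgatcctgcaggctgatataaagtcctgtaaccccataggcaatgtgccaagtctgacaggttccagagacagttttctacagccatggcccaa
Gnat2: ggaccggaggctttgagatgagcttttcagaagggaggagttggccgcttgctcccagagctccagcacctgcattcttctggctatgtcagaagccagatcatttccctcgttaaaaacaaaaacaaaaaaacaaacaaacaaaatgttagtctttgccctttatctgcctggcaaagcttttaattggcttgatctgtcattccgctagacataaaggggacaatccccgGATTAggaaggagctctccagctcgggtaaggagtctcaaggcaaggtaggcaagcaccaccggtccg
Arr3: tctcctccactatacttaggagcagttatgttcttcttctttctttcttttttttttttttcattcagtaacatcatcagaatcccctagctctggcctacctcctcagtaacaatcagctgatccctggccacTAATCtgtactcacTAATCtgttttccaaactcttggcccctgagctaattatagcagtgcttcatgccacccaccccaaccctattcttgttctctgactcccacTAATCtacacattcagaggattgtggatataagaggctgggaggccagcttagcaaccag

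Arr3 held 3 matches, Opn1sw 1 and Gnat2 1, where the motif reads on the opposite strand and forms the longer TAATCC. The Gnat2 window belongs to a start inside the annotated span of the gene. The windows of Opn1mw, Pde6h and Cnga3, which has 2 entries, held 0 matches on either strand. Among 32851 RefSeq promoters of the same 300 bases, 22% (7228) held TAATC on either strand, and 7.06% (2320) held TAATCC, which includes it. A match is a description of these letters, and no match says nothing about a factor. Gnb3, Gngt2, Pde6c and Cngb3 are given by name only.

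The 3 libraries differed in depth. They held 13528 barcodes and 14568384 RNA UMIs at 2 weeks, 10334 and 19997276 at 4 weeks, and 8556 and 21805441 in the control. After filters, 8848, 8921 and 7172 nuclei stayed, with medians of 800, 1200 and 1635 UMIs and 0.519%, 0.600% and 1.88% mitochondrial UMIs in the 2-week, 4-week and control libraries. The libraries shared 207 (2 and 4 weeks), 173 (2 weeks and control) and 142 (4 weeks and control) cell barcodes. Nuclei were clustered, and classes named from marker genes, without the 10 members, and a name such as cone stands for cone-like throughout. The cone class was 1 cluster in which 7 of 8 cone markers other than the members, among them Thrb, Rxrg and Sall3, were enriched. It held 463 nuclei at 2 weeks, 439 at 4 weeks and 383 in the control, or 5.51% (5.03 to 6.02), 5.04% (4.59 to 5.52) and 5.54% (5.02 to 6.11) of the named nuclei, with exact binomial intervals. Their median UMI counts were 1982, 2772 and 3107.

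All 10 genes were measured in cones, and each stayed within 2-fold of the control level at both times. A gene counted as measured when the richer library held at least 30 of its UMIs, and as called when its level differed 2-fold or more. By that rule 0 of 10 members were called, beside 2.74% of the 6899 measured genes higher and 3.59% lower at 2 weeks over control. At 4 weeks over control, 0 of 10 were called beside 0.823% of 7170 genes higher and 1.27% lower. Between 4 and 2 weeks, 0 of 10 were called beside 1.72% of 6971 genes higher and 1.59% lower. Below those folds the members did not move together: Arr3, Cngb3 and Pde6c were higher and Gngt2, Pde6h and Gnat2 lower than the control at both times. Cnga3 was also higher at both times, with an interval that includes 1 at 2 weeks. Levels are UMIs per 1000000 UMIs of the class (CPM), not corrected for gene length, so they compare 1 gene between classes or libraries and not 1 gene with another.

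**Figure D1:**
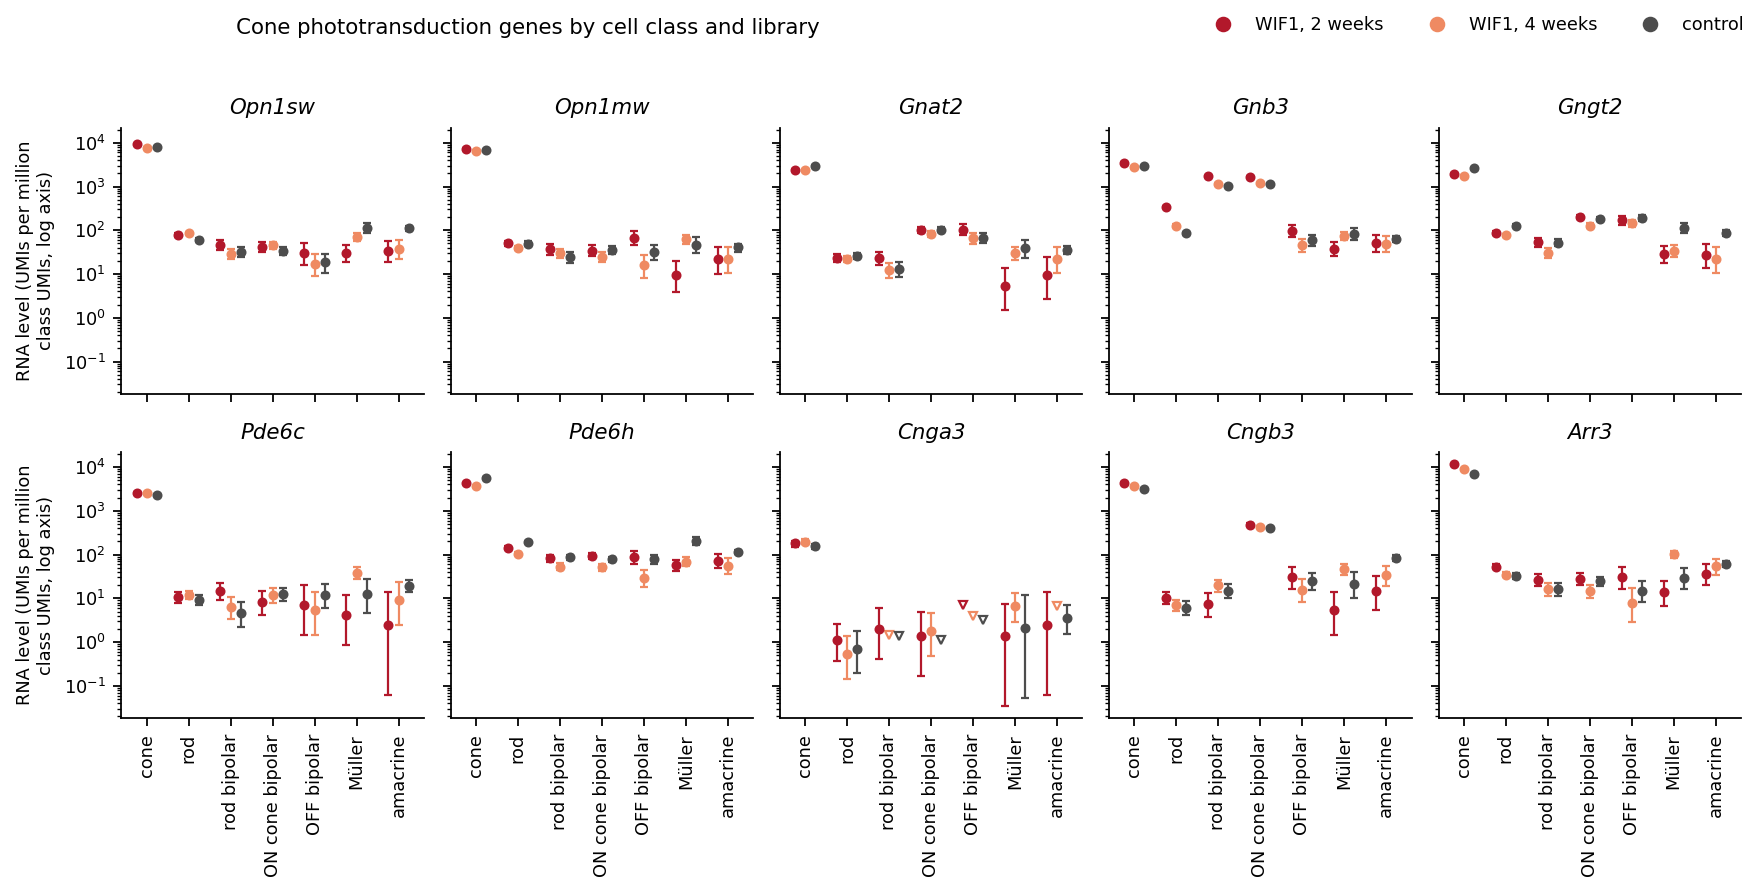
RNA level (y axis, UMIs per 1000000 UMIs of the class, log scale) of the 10 genes in 7 cell classes (x axis) of the WIF1 2-week (dark red), WIF1 4-week (orange) and control (grey) libraries. Points are single libraries, bars exact 95% Poisson intervals, and open triangles the level that 3 UMIs would give where none was counted. All 10 genes sit highest in cones, and Gnb3 comes closest to the cone level in rod bipolar and ON cone bipolar nuclei.

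The opsins come first in the cascade. S opsin, Opn1sw (ENSMUSG00000058831, chromosome 6, 29376671 to 29380513, overlapping Calu), had 9293 CPM (9099 to 9491) in 2-week cones, 7696 (7545 to 7850.2) in 4-week cones and 7879.8 (7723 to 8039) in control cones. Over control, 2-week cones were at 1.18 (1.15 to 1.21) and 4-week cones at 0.977, an interval that reaches 1. The 2-week library was the high one, and the 4-week and control libraries lay within counting error of each other. M opsin, Opn1mw (ENSMUSG00000031394, chromosome X, 74127466 to 74150756, overlapping Gm6758), had 7383, 6568 and 6864 CPM in 2-week, 4-week and control cones. Its ratios were 1.08 (1.04 to 1.11) and 0.957 (0.928 to 0.987). The share of cones with an Opn1sw UMI was 67.8% at 2 weeks, 74.7% at 4 weeks and 73.9% in the control, and 62.7%, 67.7% and 66.6% once each nucleus was thinned to 500 UMIs. Müller glia, which should lack the gene, had 6.74%, 7.06% and 10.9% at median depths of 2462, 3481 and 3488 UMIs.

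UMIs of both opsins were found in 55.9% of cones at 2 weeks, 57.9% at 4 weeks and 64.2% in the control, only Opn1sw in 11.9%, 16.9% and 9.66%, and only Opn1mw in 32.2%, 25.3% and 24%. In rods, which are shallower, UMIs of both were found in 0.450%, 0.569% and 0.548%, and an Opn1mw UMI was found in 2.13%, 7.45% and 7.75% of Müller glia. These shares rest on nuclei of unequal depth, and no order is read from them.

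The G protein comes next. Gnat2 (ENSMUSG00000009108, chromosome 3, 108086788 to 108101432, overlapping Gm12500), the α subunit of cone transducin, had 2414 CPM at 2 weeks, 2426 at 4 weeks and 2946 in control cones. Both WIF1 libraries were lower, at ratios of 0.820 (0.777 to 0.864) and 0.824 (0.785 to 0.864). Gngt2 (ENSMUSG00000038811, chromosome 11, 95841772 to 95845734, overlapping Abi3), the γ subunit, had 1912, 1735 and 2605 CPM, at ratios of 0.734 (0.692 to 0.778) and 0.666 (0.631 to 0.704). Gnb3 (ENSMUSG00000023439, chromosome 6, 124834240 to 124840275), the β subunit, did not go the same way. It had 3489 CPM at 2 weeks, 2760.3 at 4 weeks and 2895 in control cones, at ratios of 1.21 (1.15 to 1.26) and 0.953 (0.910 to 0.999).

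The phosphodiesterase has a catalytic subunit, Pde6c, and an inhibitory subunit, Pde6h. Pde6c (ENSMUSG00000024992, chromosome 19, 38132781 to 38183955, overlapping Gm32440 and Gm52398) had 2537 CPM at 2 weeks, 2596 at 4 weeks and 2311 in control cones, ratios of 1.10 (1.04 to 1.16) and 1.12 (1.07 to 1.18). Pde6h (ENSMUSG00000064330, chromosome 6, 136952218 to 136963485) had 4278, 3618 and 5683 CPM, ratios of 0.753 (0.724 to 0.783) and 0.637 (0.613 to 0.661). At 4 weeks Pde6h had the lowest ratio of the 10 members in cones, and 93.7% of all measured genes had a higher one.

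The channel pairs Cnga3, which can form the pore on its own, with the modulatory subunit Cngb3. Cnga3 (ENSMUSG00000026114, chromosome 1, 37218241 to 37263384) was the member with the fewest UMIs, 168 at 2 weeks, 252 at 4 weeks and 189 in control cones. Its level was 179.6 CPM (153 to 209), 198 (174 to 224) and 154 (133 to 178), with ratios of 1.16 (0.939 to 1.44) and 1.28 (1.06 to 1.56). Cngb3 (ENSMUSG00000056494, chromosome 4, 19280850 to 19510623, overlapping Gm11877) had 4438 CPM at 2 weeks, 3645 at 4 weeks and 3237 in control cones. Its ratios were 1.37 (1.31 to 1.43) and 1.13 (1.08 to 1.17), so the order of the libraries ran from 2 weeks down to control.

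Arr3 (ENSMUSG00000060890, chromosome X, 100605480 to 100618493), cone arrestin, had the widest difference of the 10 in 2-week cones. Its level was 11550.4 CPM (11334 to 11770.3) at 2 weeks, 8912 (8749 to 9078) at 4 weeks and 7094 (6946 to 7245) in the control. That is 1.63-fold (1.58 to 1.68) the control level at 2 weeks and 1.26-fold (1.22 to 1.29) at 4 weeks. Arr3 ranked at place 480 of the 6899 measured genes by its 2-week ratio, so 6.94% of genes had a higher one. No small group of nuclei set the level, since the 5 richest held 3.41% of the Arr3 UMIs at 2 weeks, 3.35% at 4 weeks and 3.54% in the control.

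Arr3 also followed the opsin a cone carried. Cones with at least 10 opsin UMIs were sorted by the share of those UMIs from Opn1sw, as mainly S (80% or more), mainly M (20% or less) and mixed. Mainly S cones numbered 138 at 2 weeks, 127 at 4 weeks and 105 in the control, mixed cones 126, 157 and 139, and mainly M cones 150, 129 and 116. In mainly M cones Arr3 had 14334 CPM (13933 to 14745) at 2 weeks, 11351 (11027 to 11682) at 4 weeks and 8296 (8017 to 8581) in the control. In mainly S cones it had 8392 (8056 to 8739), 6657 (6389.7 to 6933) and 5645 (5393 to 5906), and mixed cones lay between at 10601, 9020.4 and 7247. The order M above mixed above S was found in each of the 3 libraries, and in each opsin group Arr3 was highest at 2 weeks and lowest in the control.

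Gnb3 was lower in mainly M cones than in mainly S cones. In mainly M cones it had 3043 CPM (2859.9 to 3236) at 2 weeks, 2574 (2421 to 2734) at 4 weeks and 2842 (2679.9 to 3011) in the control. In mainly S cones it had 4232 (3994 to 4480.5), 3410.0 (3219 to 3609) and 3377 (3183 to 3580.4). Mixed cones had 3497, 2691 and 2779, between both at 2 and 4 weeks and below mainly M cones in the control, where the intervals of mixed and mainly M cones overlap. Cngb3 differed less, with 4598, 3609 and 3312 CPM in mainly M cones and 4548, 3798 and 3482 in mainly S cones, intervals that overlap in every library. Pde6h in mainly M cones was at 4589, 4195 and 6694 CPM against 4497, 3681 and 5258 in mainly S cones, and its intervals overlapped at 2 weeks but not at 4 weeks or in the control.

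Summed over the 10 genes, cones held 47474 CPM at 2 weeks, 40155 at 4 weeks and 41669 in the control, ratios of 1.14 (1.12 to 1.15) and 0.964 (0.952 to 0.976). The median log2 ratio of the members was 0.18 at 2 weeks and -0.05 at 4 weeks, beside -0.04 and 0.04 over all measured genes. RNA of the rod counterparts of these proteins was lower in WIF1 cones. Of those 10 genes, 7 were 2-fold or more lower in 2-week cones than in control cones, beside 3.59% of all measured genes. Their median log2 ratio was -1.21. At 4 weeks 0 of 10 passed 2-fold, beside 1.27% of genes lower, with a median of -0.62. Gnat1, the rod transducin α subunit, had 187 CPM in 2-week cones, 318 in 4-week cones and 523 in control cones. Sag, the rod arrestin, did not follow it, at 7396, 5349 and 5893 CPM. In rods themselves 0 of these 10 genes passed 2-fold at either time. Mean rod chromatin in cone droplets, estimated from open chromatin, was 3.49% at 2 weeks, 2.84% at 4 weeks and 5.06% in the control, and its part in the rod RNA of cones was not tested.

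**Figure D2:**
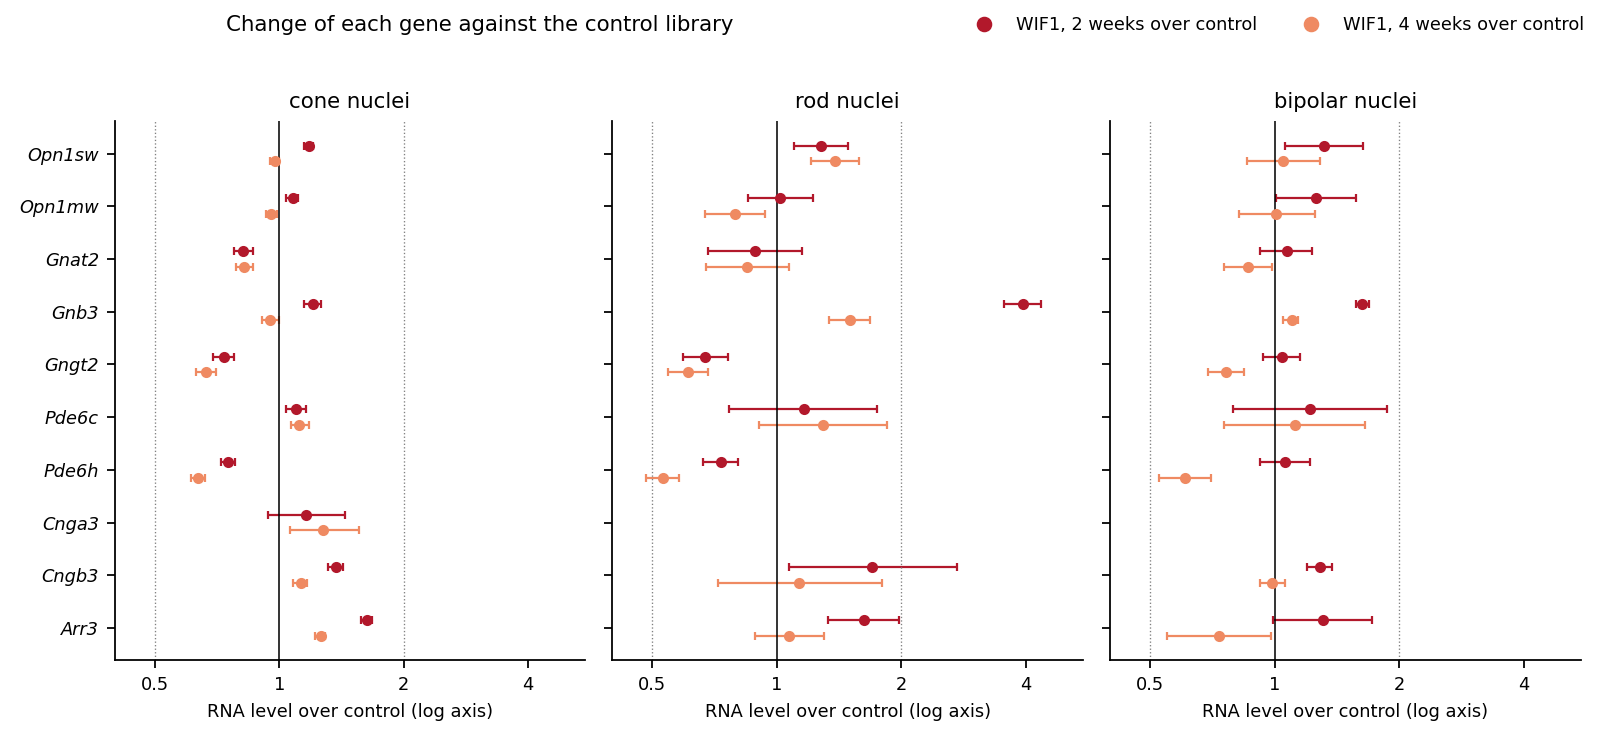
Level of each gene over the control library (x axis, log scale) in cone, rod and bipolar nuclei (panels), at 2 weeks (dark red) and 4 weeks (orange). Points are ratios of CPM, bars exact 95% conditional binomial intervals, and dotted lines mark 0.5 and 2. Genes under 30 UMIs in the richer library are left out, and Gnb3 in 2-week rods, at 3.93, is the point past 2-fold.

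Genes around the cascade mostly stayed within 2-fold. Of 20 regulators of the photoreceptor cascade, 20 were measured in cones. At 2 weeks 2 were 2-fold or more lower than in control cones, Gucy2f, a retinal guanylate cyclase, at 0.0727 (2 UMIs against 36), and Slc24a1, the rod sodium-calcium exchanger, at 0.245. At 4 weeks Gucy2f was the 1 gene past 2-fold, at 0.428, and 0 regulators were 2-fold higher at either time. Of 13 photoreceptor fate factors, 1 passed 2-fold in 2-week cones, Nrl, the rod-determining factor, lower at 0.355, and 0 passed at 4 weeks. The 7 measured cone markers other than the members stayed within 2-fold at both times.

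In rods, Gnb3 was the 1 member called against the control, at 2 weeks only. Its level was 335 CPM (318 to 353, 1496 UMIs) in 2-week rods, 128 (120.1 to 136, 951 UMIs) in 4-week rods and 85.3 (77.8 to 93.3, 478 UMIs) in control rods. Over control, 2-week rods were at 3.93 (3.54 to 4.36) and 4-week rods at 1.5 (1.34 to 1.68), and 4-week rods over 2-week rods were at 0.382 (0.352 to 0.415). Of the 9 members measured in rods, 1 was called higher at 2 weeks and 0 lower, beside 3.07% of 10595 genes higher and 1.80% lower. At 4 weeks over control 0 of 9 were called, beside 0.385% of 10897 genes higher and 0.532% lower, and Gnb3 was called lower at 4 weeks over 2 weeks, beside 2.77% of 10917 genes lower and 1.73% higher. Among all measured genes the Gnb3 ratio ranked at place 40 at 2 weeks and 259 at 4 weeks. Pde6h and Gngt2 lay near the low end at 4 weeks, where 99.2% and 97.8% of genes had a higher ratio.

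The share of rods with a Gnb3 UMI was 18.6% of 5779 at 2 weeks, 11.5% of 6151 at 4 weeks and 10.2% of 4194 in the control, at median depths of 695, 1026 and 1162 UMIs. Thinned to 500 UMIs per nucleus, the shares were 13.2%, 5.42% and 4.18%. In Müller glia the thinned shares were 2.13%, 2.65% and 2.72%, and in amacrine nuclei 2.81%, 1.95% and 2.90%. By thinned share both classes were below rods in each library, and their 2-week values were not above their control values. Endothelial nuclei ran the other way, with thinned shares of 4.97%, 3.65% and 2.14% and levels of 153, 145 and 41.6 CPM, from 16, 27 and 7 UMIs. The 2-week endothelial level was 3.67-fold the control (1.43 to 10.6) and the 4-week level 3.49-fold (1.48 to 9.49), both from those few UMIs, of which 5 nuclei held 81.2%, 85.2% and 71.4%. The Gnb3 level in Müller glia was 38.1, 75.3 and 83.3 CPM, lowest at 2 weeks, and in amacrine nuclei 51.3, 49.6 and 64.5 CPM. By level, control rods did not stand apart from control Müller glia, at 2.95% (2.67 to 3.24) and 2.88% (2.04 to 3.94) of the cone level.

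Rods use Gnb1 as their transducin β subunit, and it did not follow Gnb3. Gnb1 had 3013 CPM in 2-week rods, 2801 in 4-week rods and 3334 in control rods. Gnb3 made up 10.0% (9.53 to 10.5) of the UMIs of both genes at 2 weeks, 4.37% (4.10 to 4.65) at 4 weeks and 2.50% (2.28 to 2.73) in the control. In cones the share was 96.1%, 93.1% and 89.0%. There Gnb1 was lower in both WIF1 libraries, at 141 CPM at 2 weeks, 204 at 4 weeks and 358 in the control, so the cone share does not follow Gnb3 alone.

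The other members stayed at a small fraction of their cone level in rods. Gnb3 in rods was at 9.61% of its cone level at 2 weeks, 4.64% at 4 weeks and 2.95% in the control, whereas the other 9 summed to 1.04% (0.993 to 1.09), 1.02% (0.984 to 1.06) and 1.32% (1.27 to 1.37). Single members ranged between 0.232% and 4.48% at 2 weeks, 0.188% and 4.47% at 4 weeks, and 0.187% and 4.89% in the control. The same sum was 0.353%, 1.23% and 1.51% in Müller glia and 0.505%, 0.693% and 1.44% in amacrine nuclei. Arr3 had 52.9 CPM in 2-week rods, 35.0 in 4-week rods and 32.7 in control rods, and Opn1sw 78.4, 84.7 and 61.2. Pde6h had 144, 104 and 197 CPM and Gngt2 85.6, 77.6 and 127, both lower than control at both times, as in cones. Opn1mw had 50.4, 39.2 and 49.4 CPM, Gnat2 23.1, 22.1 and 26.1, Pde6c 10.8, 12 and 9.28, and Cngb3 10.3, 6.87 and 6.07. Cnga3 had 5, 4 and 4 UMIs and was not measured there.

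Rods came from several clusters, and a different one was largest in each library. Cluster 7, whose leading gene was the immunoglobulin gene Igkc, held 2711 of the 2-week rods, cluster 9 held 1541 of the 4-week rods and cluster 0 held 1650 of the control rods. Gnb3 was higher at 2 weeks than in the control within each of the 6 clusters that could be compared. Cluster 0 had 379 CPM (323 to 442) at 2 weeks, 177 (153 to 203) at 4 weeks and 91.8 (80.2 to 104) in the control, a 2-week ratio of 4.13 (3.36 to 5.08). Other cone RNA was also higher there at 2 weeks: the 8 members other than Gnb3 and Gngt2 summed to 1369, 687 and 416 CPM, and Arr3 alone was at 158, 66.3 and 33 CPM. In each of the other 5 clusters with all 3 libraries the same sum was lower at 2 weeks than in the control, for example 315 against 427 CPM in cluster 8. Clusters 2, 4 and 9 had 2-week ratios of 3.40, 2.29 and 3.15. Cluster 7 had 239.6 CPM at 2 weeks, 107 at 4 weeks and 29.5 in the control, where only 3 UMIs were counted, so its ratio of 8.11 has an interval of 2.76 to 39.5.

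Cluster 8, led by Dpp10 with Edn2, a gene that injured photoreceptors switch on, among its top genes, had the highest Gnb3 level of the rod clusters in every library. It had 735 CPM (677 to 797) at 2 weeks, 393 (339 to 452) at 4 weeks and 260.3 (193 to 343) in the control, and it held 938, 393 and 147 rods. Edn2 itself was at 243, 61.7 and 57.3 CPM in that cluster and had 0 to 4 UMIs per library in the other rod clusters. Without clusters 7 and 8, a choice made after these values were seen, Gnb3 in rods was 3.18-fold (2.78 to 3.64) the control level at 2 weeks and 1.37-fold (1.21 to 1.55) at 4 weeks.

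**Figure D3:**
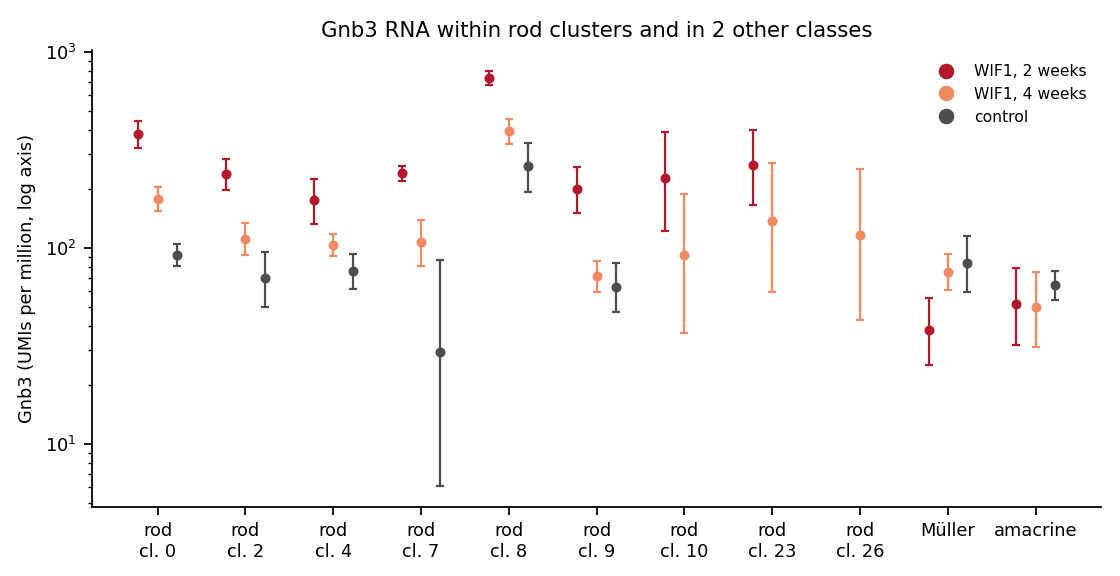
Gnb3 level (y axis, CPM, log scale) in each rod cluster with at least 50 nuclei of a library, and in Müller and amacrine nuclei (x axis), for the WIF1 2-week (dark red), 4-week (orange) and control (grey) libraries. Points are single libraries and bars exact 95% Poisson intervals. In the 6 clusters with all 3 libraries the 2-week point is the highest and the control point the lowest, and cluster 8 is highest at 735, 393 and 260.3.

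Open chromatin of the same nuclei gave an estimate of the chromatin that each rod droplet held from other classes. The class profiles were summed from these same nuclei, so material shared by all rods goes unseen. RNA from outside the nucleus was not measured. Rods with a Gnb3 UMI had a mean of 1.59% cone chromatin at 2 weeks, 1.27% at 4 weeks and 2.26% in the control, and rods without one had 1.02%, 0.786% and 1.39%. Those over 25% chromatin of another class were 0.650%, 0.141% and 1.17% of rods with a Gnb3 UMI. Leaving out all rods over that cut gave ratios of 3.92 at 2 weeks and 1.51 at 4 weeks. The cut removed only 19 of 5779 rods at 2 weeks, 7 of 6151 at 4 weeks and 21 of 4194 in the control. The ratios could therefore hardly move, and nothing is read from their staying the same. A UMI of another member was found in 24.6%, 33.8% and 51.9% of rods with a Gnb3 UMI, and in 21.6%, 25.9% and 43.1% of rods without. Rods with a Gnb3 UMI were also deeper, with medians of 750, 1204 and 1277 UMIs against 685, 1007 and 1150. The part of depth in these shares was not tested.

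Rods of higher depth gave another count. Only 704 of the 2-week rods, 3296 of the 4-week rods and 2962 of the control rods had at least 1000 UMIs, and among them 6 of 9 members were 2-fold or more higher at 2 weeks, beside 5.58% of genes in either direction. These were Gnb3 at 4.75, Arr3 at 2.58, Opn1sw at 2.49, Pde6c at 2.23, Cngb3 at 2.11 and Opn1mw at 2.03. The part of depth in that difference was not tested.

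In bipolar nuclei Gnb3 was high in every library and again highest at 2 weeks. Its level was 1377 CPM (1340.2 to 1415) at 2 weeks, 927 (902 to 953) at 4 weeks and 846 (824 to 869) in the control, ratios of 1.63 (1.57 to 1.69) and 1.10 (1.05 to 1.14). That was 39.5%, 33.6% and 29.2% of the cone level. Of the 9 members measured, 0 were called at 2 weeks, beside 1.80% of 11749 genes higher and 2.34% lower, and 0 at 4 weeks, beside 0.211% of 11821 genes higher and 0.846% lower. Between 4 and 2 weeks 0 of 9 were called, beside 1.42% of 11413 genes higher and 1.73% lower. Below 2-fold, all 9 members had a 2-week ratio above 1, beside 49.9% of genes, with a median log2 ratio of 0.33 beside -0.00. At 4 weeks 4 of 9 were above 1, beside 52.6% of genes. The members without Gnb3 summed to 1.18-fold (1.13 to 1.24) the control level at 2 weeks and 0.877-fold (0.838 to 0.917) at 4 weeks. Gnb3 stood at 1699, 1150.0 and 1031 CPM in rod bipolars, which are ON cells, and at 1689, 1176 and 1163 in ON cone bipolars. OFF bipolars, which lack the mGluR6 cascade, had 97.5, 45.0 and 59.5 CPM.

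By cluster, the 2-week ratio lay between 1.38 and 2.81 in the 9 bipolar clusters where both libraries had at least 50 nuclei. In the OFF clusters 11 and 19 it was 1.76 (0.928 to 3.33) and 1.55 (0.844 to 2.79), intervals that include 1, from 33 UMIs or fewer per library. The highest ratio of the 9 was in cluster 20, with 397 CPM (336 to 464) at 2 weeks, 226 (187 to 272) at 4 weeks and 141 (115 to 171) in the control. Cluster 20 met neither the ON nor the OFF marker rule, so the OFF bipolar values above leave it out. It had the OFF marker Grik1 at 10199 CPM and the ON markers Grm6 at 34.4 and Isl1 at 18.4. OFF cluster 11 had 7634, 26.8 and 15.2. Of the OFF markers, only Grik1 and Fezf2 were above the midpoint of their log2 range over the bipolar clusters in cluster 20. Neto1, Tacr3, Vsx1, Irx6, Syt2 and Lhx3 were not, and no ON marker was. The other genes of the ON bipolar G protein cascade gave 9 of 11 measured members above the control level in 2-week bipolars, with a median log2 ratio of 0.29 beside -0.00 over all genes. Of the 11, 1 passed 2-fold, Gng13, a G protein γ subunit of these cells, with 1550.4 CPM at 2 weeks, 776 at 4 weeks and 708 in the control.

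Rod RNA in the bipolar class was lower in the WIF1 libraries. Of the 10 rod counterparts, 8 were 2-fold or more lower in 2-week bipolars and 4 in 4-week bipolars than in control bipolars. All measured genes gave 2.34% and 0.846%. The 2-week difference was not particular to bipolars: 10 of 10 were lower in Müller glia and 8 of 10 in amacrine nuclei, beside 8.26% and 11.4% of genes. In endothelial nuclei 0 of 9 measured were 2-fold lower at 2 weeks. At 4 weeks 0 were 2-fold lower in any of these 3 other classes. Among the regulators, Rcvrn, Gucy2f, Slc24a1 and Rbp3 were 2-fold lower at 2 weeks and Guca1b at 4 weeks, and of the fate factors Nrl was lower at both times, at 0.335 and 0.381, and Samd7 at 2 weeks, at 0.362. The summed level of 13 bipolar markers was 15376, 12637 and 11992 CPM in the same nuclei, and of 10 rod markers 2211, 2468 and 4960.4. The part of this difference in the Gnb3 ratio was not tested.

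Cngb3 RNA was concentrated in 3 bipolar clusters. Clusters 16, 20 and 24, picked after their Cngb3 values were seen and so given as a description, held 310 nuclei at 2 weeks, 289 at 4 weeks and 333 in the control. They carried 95.9%, 94.7% and 95.2% of the bipolar Cngb3 UMIs. Their joint level was 2082 CPM (1970.2 to 2198) at 2 weeks, 1631 (1549 to 1717) at 4 weeks and 1384 (1319.9 to 1451) in the control, or 46.9%, 44.8% and 42.8% of the cone level. The other bipolar clusters had 17.9, 17.5 and 16.7 CPM, with a UMI in 2.07%, 2.55% and 2.55% of their nuclei.

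Cluster 24, led by Adarb2, Brinp3 and Cntn5, had a Cngb3 UMI in 95.7%, 100% and 98.7% of its nuclei, at 2657 CPM at 2 weeks, 2634 at 4 weeks and 2058 in the control. Cluster 16, led by Tmem200a, Cntn5 and Gabrr3, had 96.1%, 94.3% and 97.2%, at 3054, 1789 and 1844 CPM. Both carried ON markers such as Grm6 and Isl1, and Trpm1, the ON bipolar channel, was at 31.2 CPM in cluster 24 and 626 in cluster 16, against 1372 to 5526 in the ON clusters 5, 17, 18, 22 and 33. Cluster 20, led by Kcnip4, Grik1 and Gsg1, had 77.4%, 79.6% and 71.5% of nuclei with a Cngb3 UMI, at 1628, 1086 and 965 CPM.

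RNA of Arr3 and Cnga3 was low there. In the joined clusters 16, 20 and 24, Arr3 was at 20.7 CPM at 2 weeks, 13.4 at 4 weeks and 28.1 in the control, under 1% of the cone level. Cnga3, the partner subunit of the channel, had 2, 3 and 0 UMIs there. The Cngb3 promoter was open in these clusters as well, with 18.7 per 1000000 ATAC counts (12.8 to 26.2) at 2 weeks, 13.9 (8.57 to 21.2) at 4 weeks and 13.1 (7.79 to 20.8) in the control. Cones had 33, 15.9 and 12.1, the other bipolar clusters 2.60, 2.37 and 1.90, and rods 0.109, 0.133 and 0.0706. The joined clusters rest on 33, 21 and 18 counts, of which cluster 20 held 20, 18 and 12, so the promoter is thinly covered in clusters 16 and 24.

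Gnat2 and Gngt2, the cone transducin α and γ subunits, were spread over more bipolar clusters. Gnat2 lay between 129 and 232 CPM in clusters 11, 16, 20, 22, 24 and 33 of the 3 libraries, and between 4.98 and 37.3 in clusters 5, 17, 18 and 19, of which 17 is the rod bipolar cluster. In cluster 20 it had 211 CPM at 2 weeks, 232 at 4 weeks and 198 in the control. Gngt2 was at 391, 399 and 311 CPM in cluster 20 and at 385, 248 and 371 in cluster 22, against 53.7, 30.3 and 52.4 in rod bipolars. All bipolars together had 83.4, 67.4 and 78.2 CPM of Gnat2 and 160.2, 118 and 154 of Gngt2.

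**Figure D4:**
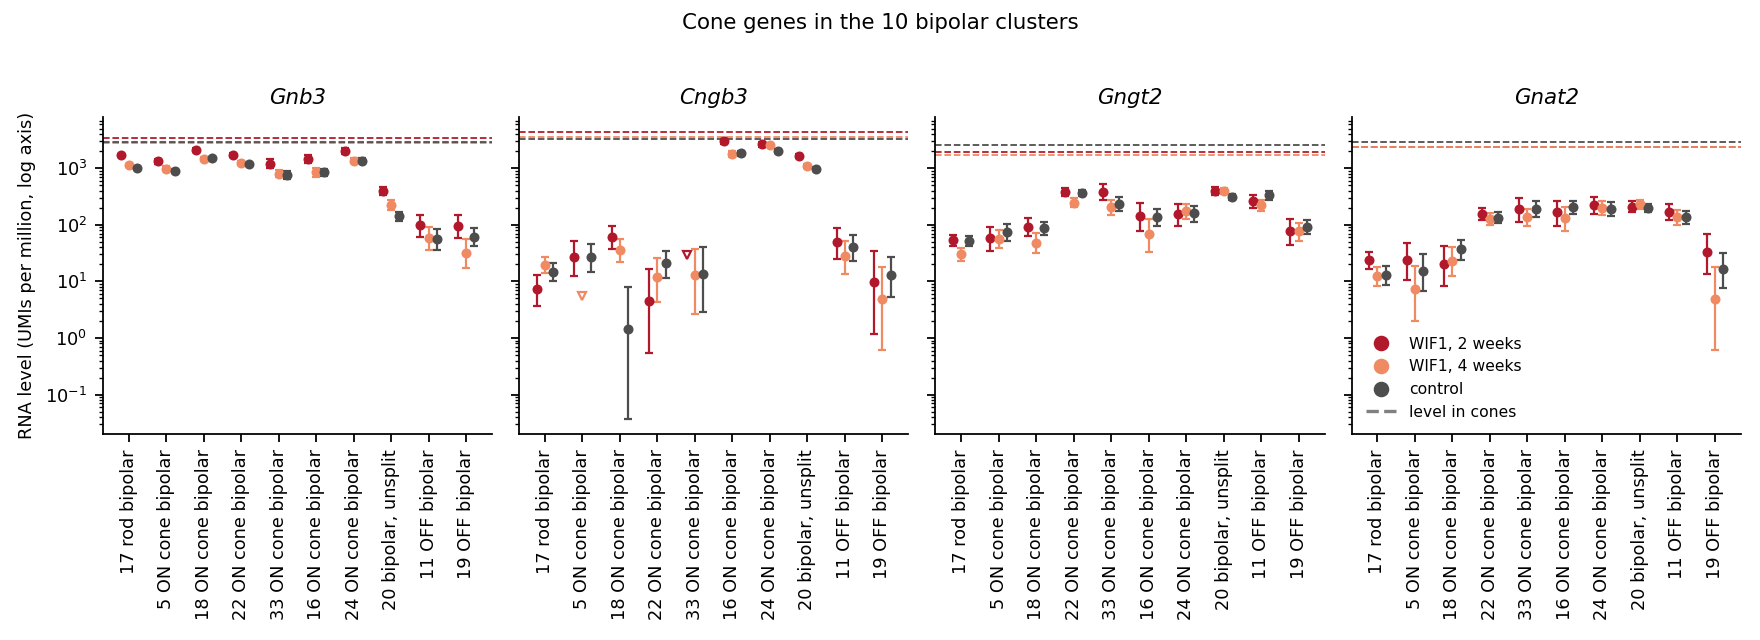
Level of Gnb3, Cngb3, Gngt2 and Gnat2 (y axis, CPM, log scale) in the 10 bipolar clusters (x axis, number and subclass) for the WIF1 2-week (dark red), 4-week (orange) and control (grey) libraries. Points are single libraries, bars exact 95% Poisson intervals, open triangles the level of 3 UMIs where none was counted, and dashed lines the level in cones. Cngb3 is at 965 or more in clusters 16, 24 and 20 and at 61.4 or less elsewhere, and Gnb3 is low in clusters 11 and 19.

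The remaining 6 members in bipolars stayed near 1% of the cone level or lower, apart from Pde6h. Arr3 had 25.5 CPM at 2 weeks, 14.3 at 4 weeks and 19.5 in the control, Opn1sw 41.2, 32.8 and 31.2, and Opn1mw 37.7, 30.3 and 29.9. Pde6c had 10.6, 9.69 and 8.69 CPM and Pde6h 88.0, 50.4 and 83.0. A few nuclei held much of this RNA, since the 5 richest carried 26.0%, 35% and 37.3% of the Arr3 UMIs. Cnga3 had 5, 5 and 0 UMIs in all bipolars. The same concentration was found in 4-week Müller glia, where Arr3 was at 102 CPM from 120 UMIs and 5 nuclei held 75.8% of them, against 13.6 CPM at 2 weeks and 29.9 in the control.

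Open chromatin at the gene starts separated cones from rods for nearly every member. Counts in peaks within 1000 bp of a start were summed and given as CPM, here per 1000000 promoter counts of the class. In the 2-week library 9 of 10 members were 2-fold or more higher in cones than in rods, in the 4-week library 8 of 9 and in the control 7 of 8, beside 15.8%, 13.1% and 12% of all promoters. The members left out had no peak or fewer than 30 counts in the higher class. Against bipolars the counts were 9 of 10, 8 of 9 and 7 of 9, beside 4.48%, 5.23% and 4.56%. Peaks were called separately in each library, with 103911, 75686 and 54429 peaks from 90490537, 71304238 and 37525307 ATAC counts, so the windows differ between libraries.

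The S opsin promoter printed above held many counts in cones and few in rods. It had 86.5 CPM in 2-week cones against 0.994 in rods, a ratio of 87.1 (58.0 to 136). At 4 weeks cones had 73.2 against 1.25 in rods, and in the control 69.6 against 3.02, ratios of 58.5 and 23.1. All 300 bases of its window lay within a peak in the 3 libraries (chr6:29380108-29381026 at 2 weeks, chr6:29380235-29381093 at 4 weeks and chr6:29380122-29381052 in the control). The M opsin window lay within a peak at 2 weeks only, with 35.1 CPM (27.7 to 43.8) in cones and 1.84 in rods. No peak was called within 1000 bp at 4 weeks or in the control, while Opn1mw RNA stayed between 6568 and 7383 CPM.

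Gnat2 had 93.8, 88.7 and 92.6 CPM in 2-week, 4-week and control cones against 4.93, 5.07 and 4.06 in rods. Its promoter was also open in ON cone bipolars, at 27.4, 41.0 and 48.5, and in OFF bipolars, at 17.6, 31.3 and 26.8. Rod bipolars were lower, at 5.21, 8.25 and 17.2, with an interval that overlaps that of OFF bipolars in the control. Gngt2, whose peaks also lie within 1000 bp of the Abi3 start, had 79.7, 72.6 and 80.6 in cones. It had 53.8, 52.1 and 69.2 in ON cone bipolars, 41.4, 62.5 and 52.5 in OFF bipolars and 10.1, 9.08 and 14.6 in rod bipolars. Arr3 had 45.5, 50.3 and 35.7 in cones and 14.8, 12.4 and 9.81 in rods, the smallest cone-to-rod ratios after Gnb3 at 3.07, 4.06 and 3.64. Over control, the Arr3 promoter in cones was at 1.27 (0.872 to 1.90) at 2 weeks and 1.41 (0.962 to 2.10) at 4 weeks, intervals that include 1, beside RNA ratios of 1.63 and 1.26.

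Summed over all peaks called within 1000 bp, Pde6h and Cngb3 were over 2-fold higher in 2-week cones than in control cones. Pde6h had 122 CPM at 2 weeks, 45.1 at 4 weeks and 40.3 in the control, where 3 peaks were called at 2 weeks and 1 in each other library, and its RNA was lower at 2 weeks. Cngb3 had 47.4, 21.8 and 16.5, with 2 peaks at 2 weeks and 1 in each other library, and rods had 4, 5 and 1 counts there. These sums compare unlike windows. Of the 267 cone counts at Pde6h at 2 weeks, 99 and 68 lay in peaks called at 2 weeks only. The Pde6h peak called in every library held 100, 87 and 44 cone counts, of 2195764, 1927484 and 1091242 promoter counts. At Cngb3 the peak over the gene start held 62, 42 and 18 cone counts, and the peak called at 2 weeks only held 42. Cnga3 had 49.2, 36.8 and 57.7 and Pde6c 92.0, 93.9 and 109.

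The Gnb3 promoter was the exception to the cone-rod contrast. It had 188 CPM (170.4 to 207) in 2-week cones, 177 in 4-week cones and 150.3 in control cones, and 129.5 (125 to 134), 111 and 107 in rods. The cone-to-rod ratio was 1.45, 1.59 and 1.40, while the RNA of the same gene in rods was under 10% of that in cones. Bipolars had 216, 237 and 203, OFF bipolars among them 98.0, 136 and 146, and Müller glia 46.8, 68.7 and 55.0. In rods the promoter at 2 weeks was 1.21-fold (1.13 to 1.29) the control level and at 4 weeks 1.04-fold (0.970 to 1.11), beside RNA ratios of 3.93 and 1.5.

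**Figure D5:**
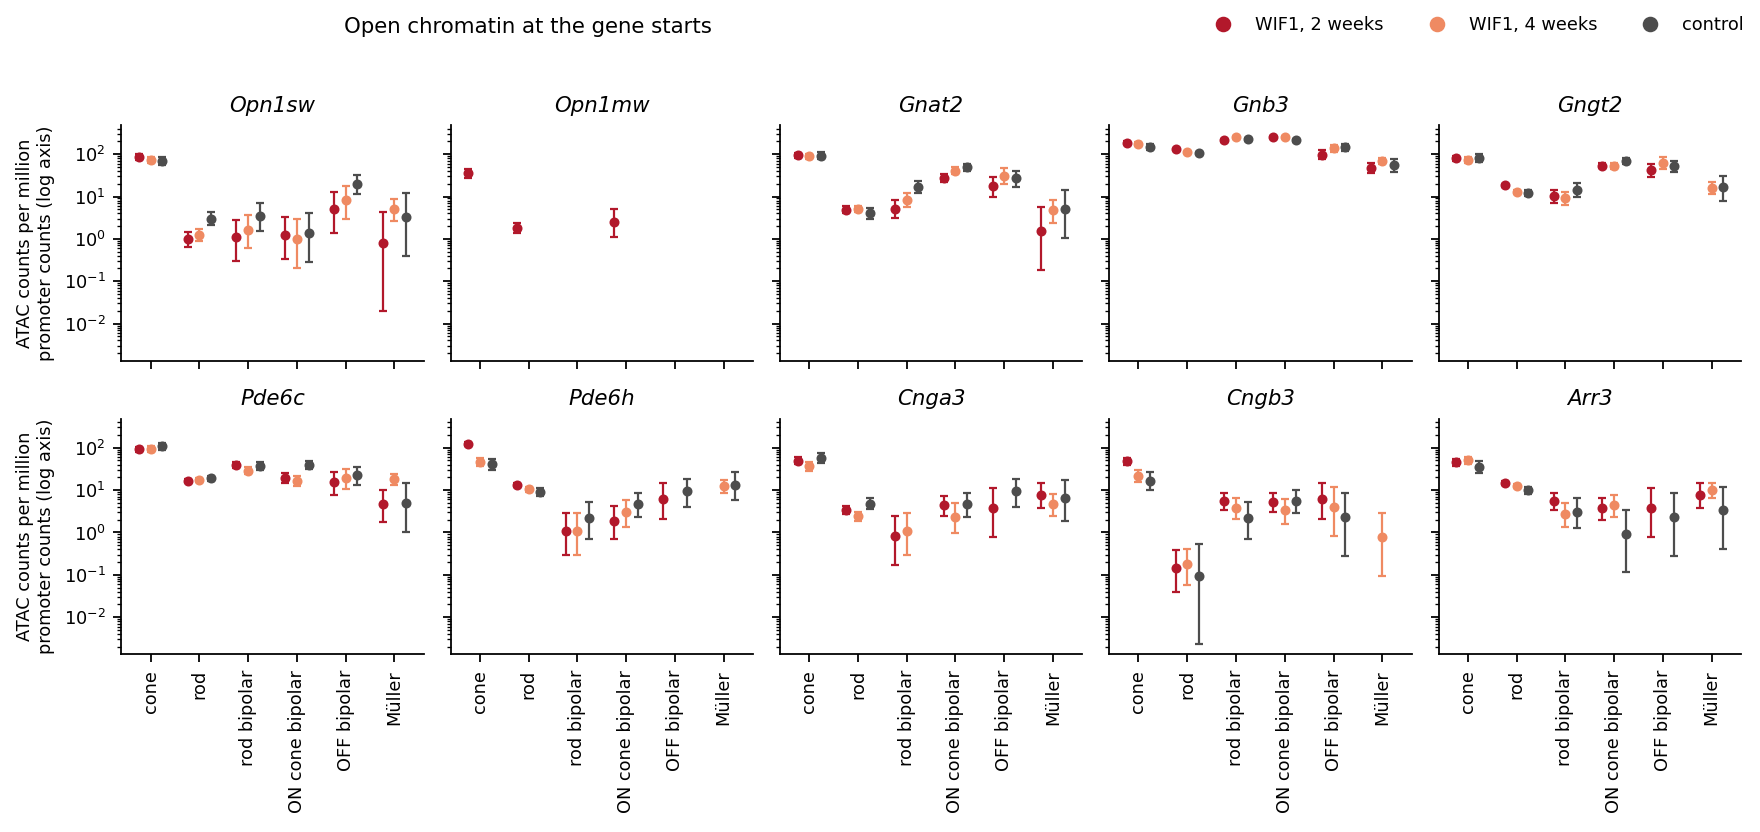
ATAC counts in peaks within 1000 bp of each gene start (y axis, per 1000000 promoter counts of the class, log scale) in 6 cell classes (x axis) for the WIF1 2-week (dark red), 4-week (orange) and control (grey) libraries. Points are single libraries, bars exact 95% Poisson intervals, and counts of 0 or genes without a peak are not drawn. Cones are highest for every member except Gnb3, whose rods and bipolars lie within 2-fold of the cones, and Opn1mw has points in the 2-week library alone.

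A pair of patterns was set beside all other genes, over 18 sums of 6 classes in 3 libraries, which share libraries and are not independent. By Pearson r of log2(CPM + 1), the genes most like the mean of the 10 members were Gm42697 and Clca1 (r = 0.98), Agr2 and Ccl9 (0.97) and Eya1 (0.96). Agr2 had 176 CPM in 2-week cones, 138 in 4-week cones and 137 in control cones. Those most like Gnb3 alone were A1bg and Gm32884 (0.94), Pygm (0.93), and Apbb1 and Gm4792 (0.92). Pygm, the muscle glycogen phosphorylase, had 340.0, 262 and 297 CPM in cones.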

How the data were processed

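RNA and open chromatin were counted in the same nuclei of 3 libraries, 1 per group. The deposited values are raw counts, made with Cell Ranger ARC 2.0.1, per the file headers. Gene entries hold RNA UMIs and peak entries hold ATAC counts, and every column is a barcode. The submitters' processing notes also name Seurat 5.0.1, Signac 1.12.0 and the build mm10. Peaks were called separately in each library, as the deposited peak lists show. The strand setting of the gene counts is not given in the sources used here, so reads of the overlapping genes named may not be told apart.

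The filters asked for 500 or more UMIs, 300 or more genes and no more than 10% mitochondrial UMIs, which left 9901, 9637 and 7683 nuclei in the 2-week, 4-week and control libraries. Scrublet's automatic threshold called 316, 0 and 0 doublets, so the nuclei with the highest scores were removed instead, at 0.8% per 1000 barcodes, or 1053, 716 and 511. The 3 libraries were clustered together with scanpy 1.11.5 (2000 variable genes without the 10 members, 30 principal components, 15 neighbours, Leiden resolution 1), with no batch correction. A cluster took a class name from at least 3 markers at 2-fold or more, and 441, 209 and 263 nuclei stayed unnamed. UMIs were summed per class and library and given per 1000000 UMIs of the class (CPM).

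With 1 library per group no test was run. Levels have exact Poisson intervals, ratios conditional binomial intervals and shares Clopper-Pearson intervals, all at 95% and for counting error only, which leaves out the spread between eyes. A ratio against 0 UMIs used a floor of 3 counts. The named genes are the 10 members, their rod counterparts, list genes past 2-fold with at least 30 UMIs in the richer library, and the 5 genes most like the members' mean and most like Gnb3. Some values of single genes are not reported here. The members, markers and lists were chosen with earlier results of these data known. Promoter sequences and gene spans are from RefSeq tables of GRCm38.p6. The share of chromatin from other classes was estimated from peaks that were 4-fold or more higher in cones, rods or bipolars. The closing section gives the alternatives tried. Calculations used python 3.11.15, numpy 2.4.6, scipy 1.17.1, pandas 2.3.3 and matplotlib 3.10.9.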

Additional observations from a re-analysis of the deposited data

Results flagged for a closer look

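At 4 weeks over control, Arr3 stood at 1.26 (1.22 to 1.29) in cones and at 0.734 (0.548 to 0.979) in bipolars, on opposite sides of 1. Gnb3 at 4 weeks over control stood at 1.5 (1.34 to 1.68) in rods and 1.10 (1.05 to 1.14) in bipolars, and at 0.953 (0.910 to 0.999) in cones. Each interval covers counting error only, with 1 library per group, and the difference between the classes was not tested. The 4-week bipolar value of Arr3 rests on 80 UMIs, against 126 in the control, and 5 nuclei held 35% and 37.3% of them.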

How the results depend on the processing

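Leaving out a replicate was not possible with 1 library per group. No paired analysis was possible because each group has 1 library and no result comes from a test. Of the single-gene values and the secondary sums and shares recomputed under an alternative, 574 stayed within the main interval, 113 moved and 6, each with a main interval that leaves out 1, changed direction. The main counts of members past 2-fold were 0 in cones and bipolars at both times, and 1 in rods at 2 weeks and 0 at 4 weeks. With called doublets kept, rods gave 1 at 4 weeks (Pde6h) and bipolars 3 (Opn1mw, Pde6h and Arr3), beside 0.909% and 0.828% of all genes measured. With at least 1000 UMIs per nucleus, rods gave 6 at 2 weeks, beside 5.58%. With each nucleus in the class of its highest marker score, rods gave 2 at 2 weeks (Gnb3 and Cngb3) and 1 at 4 weeks (Pde6h), beside 6.18% and 3.01%. At 1.5-fold, cones gave 1 and 2, rods 3 and 3, and bipolars 1 and 1 at 2 and 4 weeks, beside 23.6% and 13.9%, 18.6% and 7.01%, and 16% and 5.35% of all genes measured.

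The main summed ratios at 2 and 4 weeks were 1.14 and 0.964 in cones, 1.33 and 0.857 in rods, and 1.43 and 0.998 in bipolars. They moved as follows. With doublets kept, rods were at 1.23 and 0.760 and bipolars at 1.36 and 0.862 at 2 and 4 weeks. With at least 1000 UMIs, rods were at 1.98 and 0.948. Without mitochondrial, rRNA-like and immunoglobulin genes, cones at 4 weeks were at 0.948. By marker score, cones were at 1.09 and 0.944, rods at 1.08 and 0.743, and bipolars at 4 weeks at 0.940. As a percentage of the cone level in rods, the 9 members without Gnb3 were at 1.16 (2 weeks) and 1.56 (control) with doublets kept. They were at 1.62 (2 weeks) and 1.23 (control) with at least 1000 UMIs, 1.38, 1.41 and 2.06 (2 weeks, 4 weeks, control) by marker score, and 0.989 (2 weeks) and 0.976 (4 weeks) without nuclei over 25% chromatin of another class. Gnb3 was at 3.29 (control) with doublets kept and 11.5 (2 weeks) and 5.15 (4 weeks) with at least 1000 UMIs. It was at 12.3, 6.51 and 4.74 by marker score, and 16.4, 7.48 and 5.82 as thinned shares of nuclei.

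Among values whose main interval leaves out 1, several changed direction. With doublets kept this was Opn1mw in 2-week bipolars, at 0.915. In 2-week rods with at least 1000 UMIs they were the sum without Gnb3, at 1.49 against 0.895 in the main setting, and Pde6h at 1.21. By marker score they were Opn1mw in 2-week cones at 0.993, Cngb3 in 2-week rods at 0.415, and Opn1mw in rods at 4 over 2 weeks at 1.01. Ratios whose main interval includes 1 also crossed it, such as Pde6c in 2-week rods, between 0.689 and 2.23, Gnat2 in 2-week rods, between 0.610 and 1.77, and Opn1mw in 4-week bipolars, between 0.455 and 1.12. For all of these the cause was not tested. Gnb3 in rods stayed between 3.14 and 4.75 at 2 weeks and between 1.30 and 1.67 at 4 weeks over 8 settings. Rods without clusters 7 and 8, an alternative added after seeing the data, gave 3.18 and 1.37.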
